A study of Drosophila melanogaster with 3 samples.

Results

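The 10 genes described here encode enzymes of glycolysis in Drosophila melanogaster, the pathway that splits glucose into pyruvate, together with lactate dehydrogenase. They were chosen by name: Pgi, Pfk, Ald1, Tpi, Gapdh1, Gapdh2, Pgk, Pglym78, Eno and Ldh, 10 of 13945 protein-coding genes on the main chromosome arms. The measurement was chromatin immunoprecipitation followed by sequencing (ChIP-seq) of the protein encoded by CG13296, fused at its C-terminus to green fluorescent protein (GFP) in a stably transgenic fly line and precipitated through GFP. There was 1 group of 3 biological replicates of whole embryos of mixed sex aged 6 to 18 hours, with chromatin sonicated to 200 to 800 bp and 1 control library shared by all 3. One label describes these libraries as input, but 3 others (assay, antibody and file derivation) record them as precipitated chromatin, and they were used as such. Whole embryos mix all tissues, so a peak does not say in which cells the protein was bound, and no untagged line was among the samples. Each replicate and the pool of all 3 has a list of 30000 peaks. A further 5724 peaks passed an irreproducible discovery rate (IDR) threshold, and they were the 5724 pooled peaks of highest signal. Peaks were ranked within each list by the authors' signal, with rank 1 the strongest, and each was placed at its summit, the base of highest enrichment. A gene with a summit no more than 500 bp from any of its transcription start sites (TSSs) was called bound.

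In glycolysis, Pgi turns glucose phosphate into its fructose isomer, Pfk adds the committing phosphate, and aldolase (Ald1) cuts the sugar into triose phosphates, which triose phosphate isomerase (Tpi) interconverts. Gapdh, Pgk, phosphoglycerate mutase (Pglym78) and enolase (Eno) then lead to phosphoenolpyruvate, and lactate dehydrogenase (Ldh) turns the pyruvate made from it into lactate. In fly embryos these genes are known to be induced together during mid-embryogenesis under the nuclear receptor ERR.

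The peaks of highest rank at these genes lay upstream of TSSs of Gapdh2, Eno, Ldh and Pgk. The sequences around the 5 member promoter summits within the first 1000 ranks of the IDR set are shown because they were the strongest promoter summits of the 10 genes. Each runs 5′ to 3′ on the strand of the gene and holds 100 bases on each side of the summit, read from the RefSeq release 6 genome (dm6). Capitals mark every match, on either strand, to 1 of 15 short motifs that are spelled out with their background shares further on; adjoining matches run together. The windows are chrX:15867879-15868079 on the plus strand for Gapdh2, and on the minus strand chr2L:1727898-1728098 for Eno, chr3L:6262804-6263004 for Ldh, chr2L:2748647-2748847 for the first Pgk summit and chr2L:2750328-2750528 for the second.
Gapdh2, IDR rank 6: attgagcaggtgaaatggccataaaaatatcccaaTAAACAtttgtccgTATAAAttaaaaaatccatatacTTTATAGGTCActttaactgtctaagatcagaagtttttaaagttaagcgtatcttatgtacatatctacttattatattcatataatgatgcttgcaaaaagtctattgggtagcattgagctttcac
Eno, IDR rank 93: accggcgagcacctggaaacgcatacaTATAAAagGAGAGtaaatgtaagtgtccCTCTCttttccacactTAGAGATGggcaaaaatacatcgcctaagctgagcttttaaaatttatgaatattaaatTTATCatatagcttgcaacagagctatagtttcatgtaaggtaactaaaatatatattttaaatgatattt
Ldh, IDR rank 287: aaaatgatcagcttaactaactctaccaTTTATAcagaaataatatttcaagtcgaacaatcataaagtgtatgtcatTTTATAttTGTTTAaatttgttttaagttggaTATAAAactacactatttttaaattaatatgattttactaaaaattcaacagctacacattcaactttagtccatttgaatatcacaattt
Pgk, IDR rank 644: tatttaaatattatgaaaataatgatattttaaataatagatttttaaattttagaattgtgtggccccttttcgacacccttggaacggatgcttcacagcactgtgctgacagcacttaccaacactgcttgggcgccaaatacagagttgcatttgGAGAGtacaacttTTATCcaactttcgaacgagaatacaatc
Pgk, IDR rank 749: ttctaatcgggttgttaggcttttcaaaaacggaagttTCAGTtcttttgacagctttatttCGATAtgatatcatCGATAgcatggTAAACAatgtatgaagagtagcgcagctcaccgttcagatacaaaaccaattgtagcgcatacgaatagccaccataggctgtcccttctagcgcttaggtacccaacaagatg
The GC content was 22.4% in the Ldh window, 29.4% in that of Gapdh2, 32.3% in that of Eno, and 35.8% and 41.3% in those of Pgk, against a median of 36.8% around all promoter summits of the IDR set, with quartiles of 30.8% and 43.8%.

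Of the 10 genes, 6 were bound in the IDR set: Gapdh2, Eno, Ldh, Pgk, Pgi and Ald1. This was 60.0% of the members, against a percent called of 23.3 among all 13945 protein-coding genes. Every member has at least 2 annotated TSSs, and genes with more TSSs were bound more often. Of the 5 members with 2 TSSs 2 were bound, against 34.8% of the 2566 protein-coding genes with 2 TSSs. Of the 5 members with 3 or more TSSs 4 were bound, against 52.5% of 1133 genes. The members' share thus lay nearer to that of genes of like TSS number, 40.2% for genes with 2 or more, than to that of all genes. With only the most upstream TSS of each gene, the 6 members remained bound, against 30.4% of genes with 2 or more TSSs. Eno and Pgk then counted only through weaker summits, of IDR rank 4648 and 1212. These lie nearer to the starts of the neighbouring genes CG31937 and Bacc. The best IDR ranks of the bound members were 6, 93, 287, 644, 3310 and 4656. Their median was 466, against 2416 for all 3244 bound genes, a comparison not matched for TSS number. Of the 13945 genes, 87 had a promoter summit within the first 100 ranks, 2 of them members. Within the first 1000 ranks 766 had one, 4 of them members.

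The replicates' own lists gave similar counts. Among the 5724 peaks of highest signal of each, 7 members were bound in replicate 1, 7 in replicate 2 and 5 in replicate 3, a mean of 6.33 ± 1.15 (SD, n = 3). The percent called over all protein-coding genes was 23.1 in replicate 1, 23.1 in replicate 2 and 23.7 in replicate 3. Gapdh2, Eno, Ldh, Pgk and Pgi were bound in all 3 of these sets, 5 of 10 members, against 16.4% of all genes. Ald1 and Pglym78 were in the sets of replicates 1 and 2 and lay just past the limit in replicate 3. In the full lists of 30000 peaks, 9 members had a promoter summit in each replicate, all but Gapdh1. The percent called there was 50.8, 49.1 and 52.1 over all genes in replicates 1, 2 and 3, and 39.1 over all genes in all 3 at once. A place in a full list therefore separates genes little, and the ranks carry more.

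**Figure D1:**
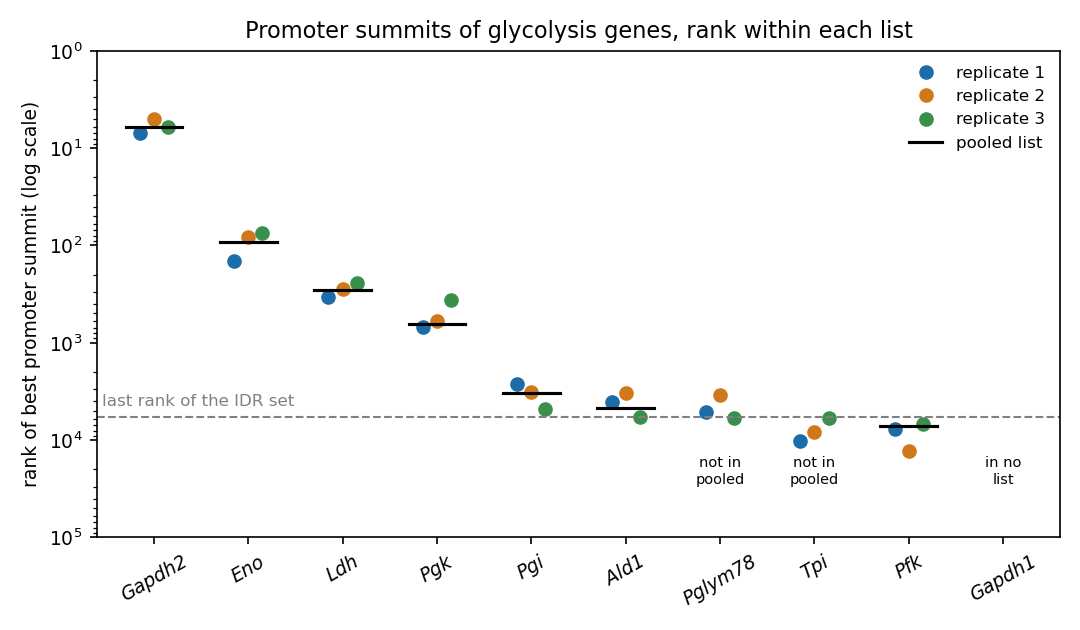
Rank of the best promoter summit of each glycolysis gene (log scale, rank 1 at the top) in the 3 replicates (points) and the pooled list (bars), with the last rank of the IDR set, 5724, as a dashed line. Gapdh2 sits at ranks 5 to 7 in every replicate, Eno, Ldh and Pgk between 75 and 686, and Pgi, Ald1, Pglym78, Tpi and Pfk between 2674 and 12933.

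Gapdh2 (chrX:15868145-15869661, plus strand, dm6) carried the strongest summit of the pathway. Its promoter summit had rank 7 in replicate 1, 5 in replicate 2 and 6 in replicate 3, and rank 6 in the IDR set. The signal values were 1543, 1026 and 1758 in replicates 1, 2 and 3, on scales that differ between lists. The summit lay 166 bp upstream of the gene's first TSS in the IDR set, and 168, 151 and 163 bp upstream in replicates 1, 2 and 3, in DNA between genes. The replicates thus agree to within 17 bp. The 3 protein-coding genes nearest to Gapdh2 in promoter rank over the 3 replicates were CG14100, with ranks 4, 4 and 7, mRpL41, with ranks 5, 7 and 8, and CG13390, with ranks 14, 10 and 11. CG17294 tied with CG13390 because it shares that summit. A second IDR summit near Gapdh2, of rank 340, lay 2763 bp downstream of its second TSS, in an intron of the neighbouring gene CG16952, with ranks 335, 451 and 343 in replicates 1, 2 and 3.

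Eno (chr2L:1724768-1729636, minus strand) came next, with ranks 145, 82 and 75 in replicates 1, 2 and 3 and IDR rank 93. This summit lay inside the gene, in an intron, 281 bp upstream of the third and most downstream TSS, and the replicates placed it 279, 282 and 275 bp upstream. A weaker IDR summit, of rank 4648, lay 196 bp upstream of the first TSS of Eno and 55 bp upstream of the TSS of the divergent gene CG31937, so that it cannot be given to 1 of these genes. The replicate summits nearest to it had ranks 6534, 3847 and 11749 in replicates 1, 2 and 3. Replicate 3 also listed a stronger summit, of rank 4766, closer to the first TSS of Eno than the IDR summit. A summit of rank 3398 beyond the 3′ end of Eno lay 16 bp downstream of the TSS of Rim2. The strong signal at Eno was thus inside the gene, nearest to the third TSS and also within 500 bp downstream of the second. The first TSS had, in the IDR set, only the weaker summit between the divergent genes.

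Ldh (chr3L:6259105-6262694, minus strand) had 1 IDR summit, of rank 287, between genes and 210 bp upstream of its first TSS. Its ranks were 337, 278 and 242 in replicates 1, 2 and 3, and the replicates placed it 213, 214 and 214 bp upstream, the narrowest range of all member summits, 1 bp. The start of the non-coding gene lncRNA:CR44522 lies 495 bp from the same summit.

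Pgk (chr2L:2746880-2753068, minus strand) held 7 IDR summits in its body with flanks of 2 kb, the most of any member. Of all protein-coding genes, 0.502% (70 genes) held at least as many. The strongest, of rank 644, lay 260 bp upstream of the fifth TSS, with ranks 799, 845 and 367 in replicates 1, 2 and 3. The replicates placed it 238, 311 and 316 bp upstream. A summit of rank 749 lay 281 bp upstream of the third TSS, with ranks 686, 598 and 805. The replicates placed this one 311, 328 and 341 bp upstream. Both summits are inside the gene, so each lies upstream of an internal start. Summits of rank 1212 and 1699 lay 296 bp downstream of the first TSS and 364 bp downstream of the fourth TSS, and that of rank 1699 was not listed in replicate 1. The remaining 3 lay over 500 bp from any Pgk start, of rank 725 and 2565 in an intron of Pgk and of rank 784 in an intron of Bacc, a gene of the opposite strand that starts inside Pgk. Those of rank 725 and 2565 share 1 peak interval, and in replicate 1 a single summit of rank 1930 is the nearest to both. Bacc starts within 500 bp of 3 of the 7, and the summit of rank 1212 lay 28 bp upstream of its TSS, nearer than to any start of Pgk.

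**Figure D2:**
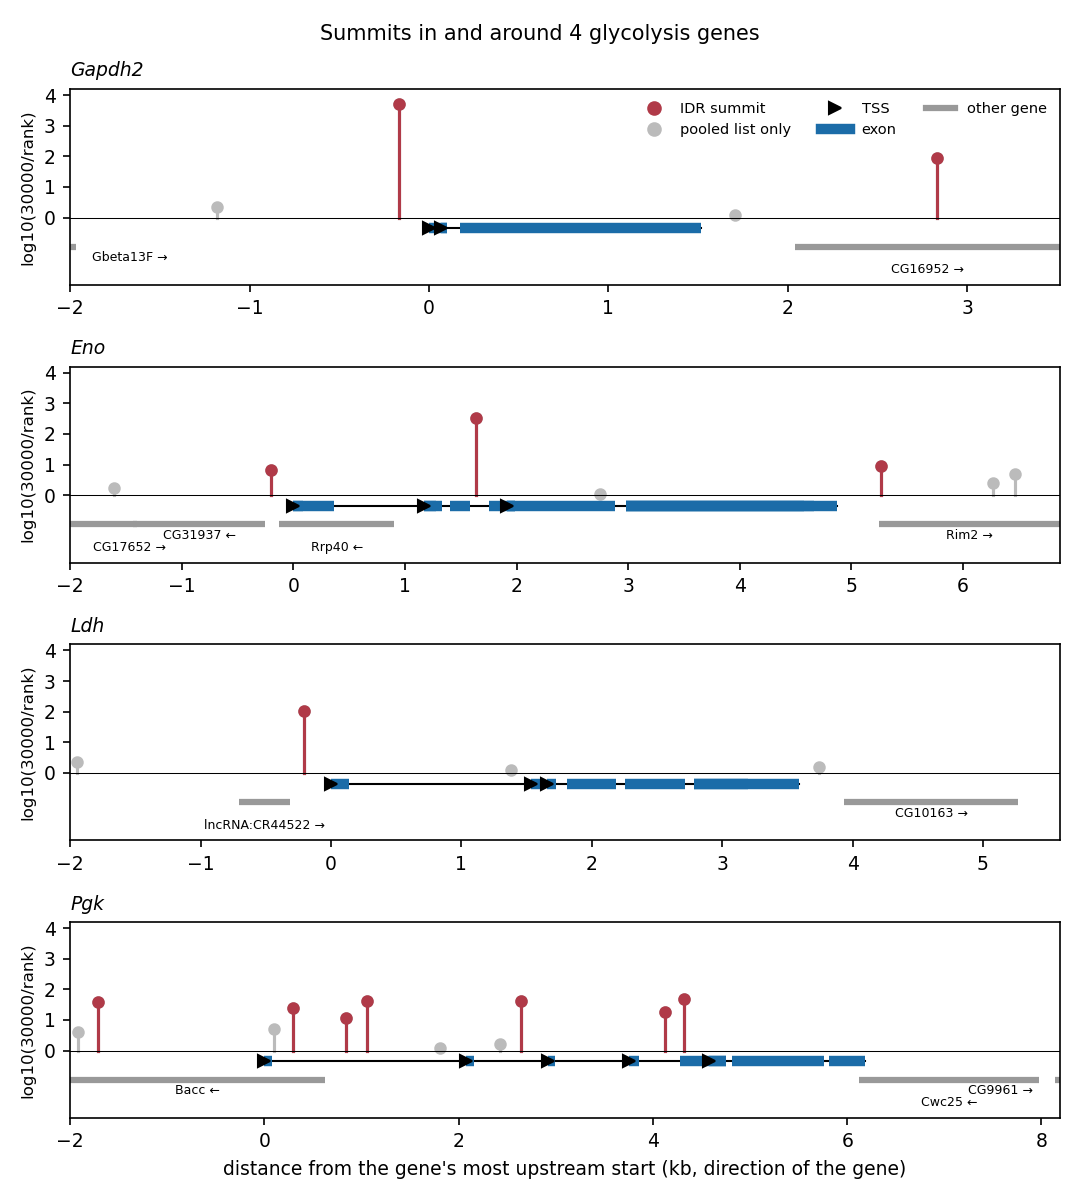
Summits in and around Gapdh2, Eno, Ldh and Pgk by distance from the most upstream start of the gene (kb, direction of the gene), with height log10(30000/rank) from the pooled list. The tallest summits lie 166 bp upstream of the first TSS of Gapdh2 and 281 bp upstream of the third TSS of Eno. The 7 IDR summits of Pgk are spread over the gene and its upstream flank. Exons, TSSs and other genes are drawn below each axis, and arrows after gene names show same or opposite direction.

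Pgi (chr2R:8910900-8914069) and Ald1 (chr3R:26254069-26261591), both on the minus strand, were bound at far weaker ranks. The Pgi summit had ranks 2674, 3227 and 4798 in replicates 1, 2 and 3 and IDR rank 3310, 35 bp downstream of its first TSS and in its 5′ UTR. The replicates placed it 18 bp downstream, in the 5′ UTR, and 24 and 23 bp upstream, between genes, in replicates 1, 2 and 3. The start of lin lies 490 bp away. Ald1 had 2 IDR summits near its starts, of rank 4656 at 16 bp downstream of the second TSS and of rank 4763 at 219 bp upstream of the third. The start of the non-coding gene asRNA:CR44321 lies 494 bp from the summit of rank 4656. The best Ald1 promoter summit had ranks 4012, 3287 and 5834 in replicates 1, 2 and 3, but at the third TSS in replicates 1 and 3 and the fifth TSS in replicate 2. The ranges of Pgi and Ald1 overlap, and so do those of Ald1 and Pglym78 and of Tpi and Pfk. No other neighbours in the order of mean rank overlapped.

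Pfk, Tpi, Pglym78 and Gapdh1 had no IDR summit at a promoter or in the gene with flanks of 2 kb. Pfk lies at chr2R:10109740-10117457 (plus strand), Tpi at chr3R:30132981-30134599 (minus), Pglym78 at chr3R:29148248-29149901 (plus) and Gapdh1 at chr2R:7791901-7793380 (minus). Of the 4, Pfk came nearest in the pooled list, which had promoter summits for 7 members against a percent called of 49.3 for all genes. Its pooled summit had rank 7127, with a −log10 q-value of 3.31, 19 bp downstream of its second TSS, and ranks 7624, 12933 and 6761 in replicates 1, 2 and 3. Tpi had ranks 10091, 8303 and 5913, with the best summit of replicate 2 at another TSS than those of replicates 1 and 3. Replicate 2 also listed a weaker summit, of rank 19275, 186 bp upstream of the first TSS of Tpi. Pglym78 had ranks 5123, 3419 and 5864, at 13 bp upstream of the second TSS, 2 bp upstream of the third and 123 bp downstream of the third in replicates 1, 2 and 3. The divergent gene CG11882 starts within 500 bp of these 3 summits. The non-coding gene asRNA:CR46082 starts within 500 bp of the Tpi summits of replicates 1 and 3 and of the weaker one of replicate 2.

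Tpi and Pglym78 were listed at a promoter in every replicate yet had no summit in the pooled list, from which the IDR set is drawn. This holds for 2 of the 9 members listed in all 3 replicates, against 92 of 5459 protein-coding genes (1.69%). At rank 6000 or better in each replicate, a limit chosen after the ranks of Pglym78 were seen, 10 of 2390 genes (0.418%) were absent from the pooled list. Pglym78 and CG11882 were among these 10, as was CG5214 of the citrate cycle list. In the replicates Pglym78 thus ranked much like Ald1, which is in the IDR set, while Pglym78 is not; the cause was not tested.

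Gapdh1 was not listed at a promoter in any replicate or in the pool. Its nearest pooled summit, of rank 7432, lay beyond its 3′ end, 1598 bp downstream of its second TSS, and had ranks 7229, 8647 and 13236 in replicates 1, 2 and 3. Gapdh1 and Gapdh2 encode almost the same glyceraldehyde phosphate dehydrogenase, with 97.3% of amino acids and 88.8% of coding bases identical. Within 300 bp on each side of the first TSS the pair had 57.7% identical bases in a global alignment. The same measure was 52.3% to 57.8% for 3 other pairs, Ald1 and Ald2, Pgk and CG9961, and Pglym78 and Pglym87. Gapdh2 and Gapdh1 thus stood at the ends of the range of members, with ranks 5 to 7 and no listing.

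Summits inside genes and flanks added little for other members. Of the 10 genes, 6 had an IDR summit in the body with 2 kb on each side, the same 6 that were bound at promoters, against 40.1% of all genes. They held 16 IDR summits, of which 11 lay within 500 bp of a TSS of the member and 0 in coding sequence, against 0.734% of all IDR summits in coding sequence. Of the 16, 15 (93.8%) were listed within 200 bp in all 3 replicates, against 96.0% of all IDR peaks, and 11 (68.8%) were among the 5724 highest peaks of all 3, against 60.7%. Both shares lay near those of all IDR peaks. In both counts the Pgk summits of rank 725 and 2565 rest on the same single summit of replicate 1. The median range of a summit's position over replicates was 34 bp, from 1 to 152 bp. The range of 152 bp is that of the Pgk summit of rank 2565, so it includes this shared match. All 5 of the member promoter summits within the first 1000 IDR ranks lay upstream of the nearest TSS. In the IDR set they lay 166 to 281 bp out, but the replicates placed those of Pgk 238 to 341 bp out. Of all 611 promoter summits of these ranks, 81.7% lay upstream. The 2996 promoter summits of the IDR set had a median position 87.5 bp upstream. Strong promoter summits in general lay further out: the median was 162 bp upstream for ranks 1 to 100 and 48 bp upstream for ranks 2863 to 5724. The span of 150 to 300 bp upstream, chosen after the members' positions were seen, held 45.1% of promoter summits of ranks 1 to 100, 29.6% of those of ranks 101 to 1000, and 21.2% of all.

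**Figure D3:**
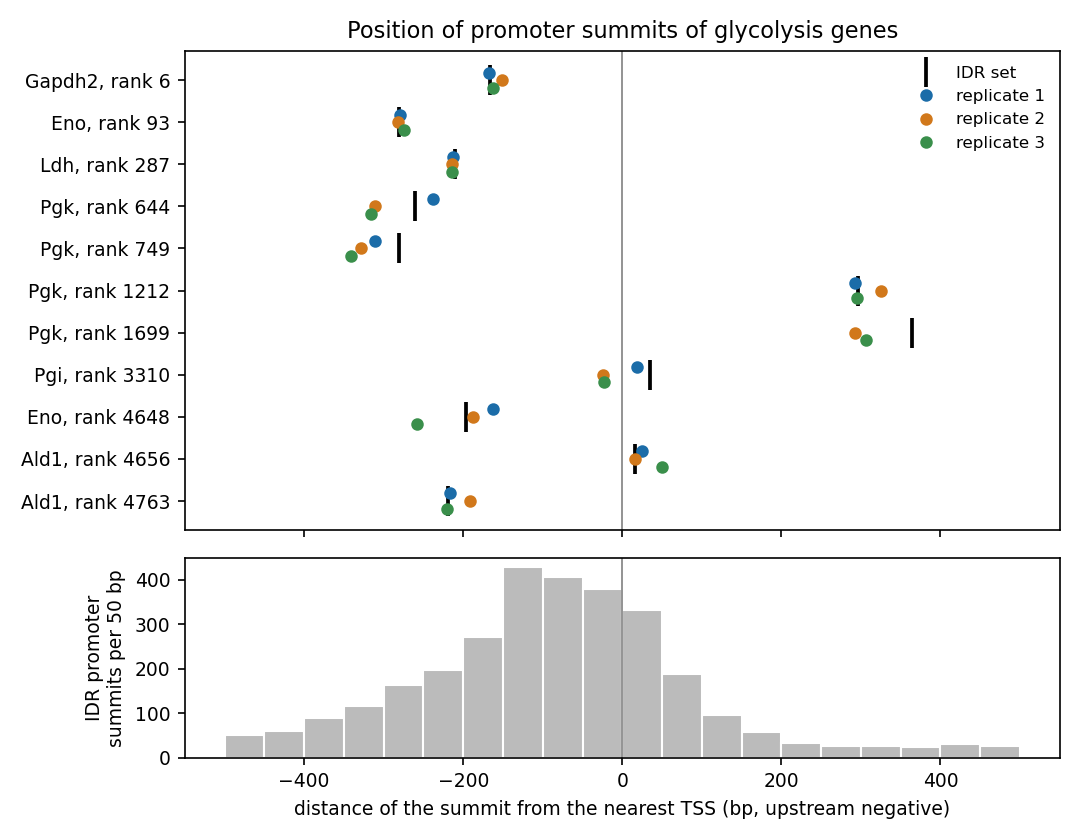
Top, distance of the 11 promoter summits of glycolysis genes from the nearest TSS of the same gene (bp, upstream negative). Bars show the IDR set and points each replicate, measured from the same TSS. Bottom, all 2996 promoter summits of the IDR set, by the nearest TSS of any gene, in bins of 50 bp. Pgk rank 1212 and Eno rank 4648 lie nearer to the TSSs of Bacc and CG31937, at 28 and 55 bp upstream. In the IDR set, the 5 summits of best rank lie 166 to 281 bp upstream, outside the crest of the lower histogram. Ldh shows the narrowest replicate range, 1 bp.

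Of 15 motifs searched within 100 bp of the summits on both strands, several known promoter and metabolic elements had no match at any of the 11 member promoter summits. These were TATCGATA (the DNA replication-related element), GGTCACACT (motif 1, bound by M1BP), the E-box CACGTG, the hypoxia element core ACGTG, TCAAGGTCA (an ERR site) and CAGGTA (bound by Zelda). Their shares over all 2996 promoter summits of the IDR set were 5.71%, 2.34%, 2.5%, 16.8%, 0.1% and 3.81% in that order, and around the 19607 protein-coding TSSs 6.43%, 4.43%, 2.79%, 18.3%, 0.0969% and 4.26%. The absence of these letters from the windows says nothing of the factors.

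The TATA word TATAAA lay near 5 of the 11 member promoter summits, 1 each of Gapdh2, Eno, Ldh, Pgk and Ald1. It was counted on either strand and at any place in the window, so a match need not be a TATA element of a TSS. It was near 34.6% of all promoter summits and 26.8% of TSSs. The forkhead word TGTTTA was found at 3 of the 11, at Gapdh2, Ldh and Pgk, against 28.1% of promoter summits and 20.7% of TSSs. The nuclear receptor word AGGTCA was found at 1 of the 11, at Gapdh2, where its first base is also the last base of a TATAAA match on the other strand, against 2.57% of promoter summits and 3.28% of TSSs. GATAA and the initiator core TCAGT were each found at 6 of the 11, over 4 members, against 42.1% and 33.7% of promoter summits and 39.6% and 43.3% of TSSs. GAGAG was found at 3 of the 11, against 25.8% and 24.9%, CGATA, bound by BEAF-32, at 2, both of Pgk, against 33.9% and 37.2%, and CAGCTG at 1, of Eno, against 12.7% and 13.5%. CANCNCTA was also found at 1, of Eno, against 12.9% and 11.1%. In the printed sequences, the Ldh window shows TATAAA on both strands with TGTTTA between them, and the first Pgk window shows only GAGAG and GATAA.

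The pathways around glycolysis were described from 8 lists of 83 annotated genes, of which 40 (48.2%) were bound in the IDR set, against the 23.3% of all protein-coding genes. That share rose from 17.1% of genes with 1 TSS to 52.5% of genes with 3 or more. The lists were not compared with genes of like TSS number. In the replicates' own sets of 5724 peaks 41, 40 and 40 were bound, a mean of 40.3 ± 0.577 (SD, n = 3). The SD of single lists ran from 0 for glycerol phosphate to 1.73 for the citrate cycle. The citrate cycle list had 12, 9 and 9 bound in replicates 1, 2 and 3, against 8 in the IDR set. The pentose phosphate list had 4, 5 and 2, against 5. Of the 14 paralogs and flanking steps of glycolysis 2 were bound (14.3%): Hex-A, the hexokinase that starts the pathway, and PyK, the pyruvate kinase that ends it. Hex-A had ranks 92, 68 and 24 in replicates 1, 2 and 3, with the IDR summit of rank 51 at 187 bp upstream, and PyK had IDR rank 2360. Among the other 12, which include Hex-C, the testis hexokinases Hex-t1 and Hex-t2, Ald2 and Pglym87, only CG7059 was in the pooled list, at rank 24348. Of the 4 hexokinase genes in the list, then, 1 was bound.

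Glycogen and trehalose genes were bound at 6 of 10. Glyp, glycogen phosphorylase, had ranks 105, 126 and 91 in replicates 1, 2 and 3 with an IDR summit of rank 96 at 189 bp upstream. Phosphoglucomutase Pgm1 had IDR rank 799, the branching enzyme AGBE 2397, Pgm2a 3930 and glycogen synthase Glys 5088. Pgm2a rested mostly on 1 library, with ranks 3807, 28399 and 6673. Trehalase (Treh, pooled rank 9671) and the trehalose transporter Tret1-1 (11294) were not bound in the IDR set. Treh ranked better in the replicates, at 6402, 5311 and 4326 in replicates 1, 2 and 3. In the pentose phosphate pathway 5 of 8 were bound. The transketolase gene CG8036 had ranks 127, 106 and 122, with an IDR summit of rank 118 at 258 bp upstream. Rpe (2447), Zw, the glucose phosphate dehydrogenase (4130), Pgd (4285) and Taldo (4777) were weaker, and Pgls had only pooled rank 8506.

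Of 5 gluconeogenesis genes, pyruvate carboxylase PCB (IDR rank 516) and fbp (5490) were bound, and Pepck1 and Pepck2 were at pooled ranks 15495 and 17377. Of 6 glycerol phosphate shuttle genes, Gpo1 (1195) and Gpdh1 (1735) were bound, and Gpdh2, Gpdh3, Gpo2 and Gpo3 were not in the pooled list. Of 7 genes listed for pyruvate entry into mitochondria 5 were bound: BckdhA (2350), Pdp (2678), Pdhb (2828), Pdk (3708) and muc (4238). BckdhA, listed under the name CG8199, belongs to the breakdown of branched-chain amino acids rather than to pyruvate dehydrogenase. Pdha and Mpc1 were at pooled ranks 17134 and 24685. Mpc1 had ranks 19667, 19340 and 2617 in replicates 1, 2 and 3.

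Of 19 citrate cycle genes 8 were bound, led by Idh3g, a subunit of isocitrate dehydrogenase, at IDR rank 163, and the fumarase gene Fum1 at rank 299. The Fum1 summit lay 280 bp upstream, with ranks 211, 301 and 427 in replicates 1, 2 and 3. The aconitase gene mAcon1 (1001), SdhC (2395) and Idh (2517) followed, and Ogdh and Mdh2, at pooled ranks 5870 and 6256, lay just outside the set. Of 14 regulators of sugar metabolism 10 were bound (71.4%). The strongest were the sugar-responsive factor cbt (IDR rank 179), Hnf4 (504), foxo (718), bigmax (1461), which partners Mondo in sugar sensing, and ERR (2421). Mondo and sug were at pooled ranks 6302 and 6594, just outside the set.

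**Figure D4:**
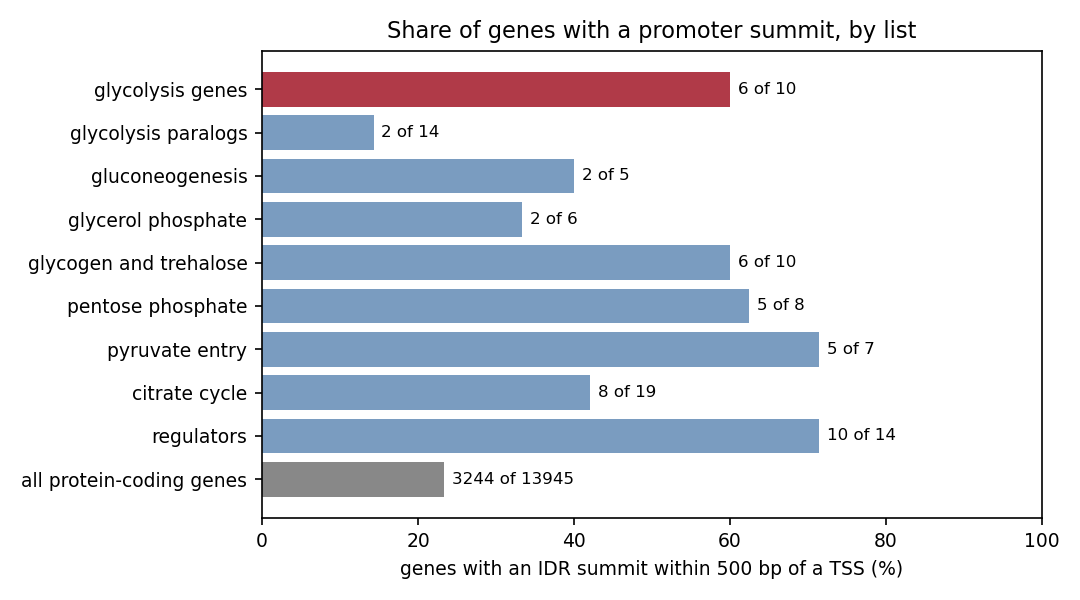
Share of genes with an IDR summit within 500 bp of a TSS (%), for the 10 glycolysis genes, 8 lists of neighbouring pathways and all 13945 protein-coding genes, with counts beside the bars. Glycolysis genes stand at 60.0%, the paralog list at 14.3%, below the 23.3% of all genes, and the regulators at 71.4%. The shares are not matched for TSS number.

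Across the 8 lists, 10 bound genes had a best IDR rank within the first 1000. All 10 of these summits lay upstream of the gene's own nearest TSS, at 94 to 377 bp with a median of 269 bp. This is read against the 81.7% of all promoter summits of these ranks that lay upstream. That share is an unlike measure, since it counts every summit, by the nearest TSS of any gene. The strong summits of the glycolysis genes, at 166 to 281 bp in the IDR set, fell within this range.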

How the data were processed

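The data were peak lists of 3 ChIP-seq replicates of 1 group. Per the deposited derivation records, the authors called a relaxed list for each replicate and for the pooled replicates against 1 shared control and derived a reproducible set, all on build dm6. The deposited signal of a peak is the authors' own peak strength and was used only to rank peaks within a list. The deposited −log10 q-value of the authors is quoted, not used for ranking. The aligner, the caller, the read number and the IDR threshold are not given in the sources used here. Depth is therefore unknown, and values carry no counting interval.

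Genes and TSSs came from Ensembl 115 (assembly BDGP 6.54, same coordinates as dm6). Bases were read from the RefSeq release 6 genome. Counting used Python 3.11.15, numpy 2.4.6 and pandas 2.3.3, identities Biopython 1.88; the promoter call was tested on simulated peaks. A gene had a promoter summit when a summit lay within 500 bp of any of its TSSs. Of the listed pathway genes, 83 matched the annotation and were used. One group has no contrast, so no test was run; 3 replicates could not give a two-sided exact p under 0.25. Members, lists and motifs were chosen with earlier results of these data known. All 10 members are named, as are up to 5 genes per pathway list with a reproducible promoter summit, up to 2 of highest pooled rank without one, genes that share a summit with a member, and the 3 genes nearest in rank to the top member. The alternatives were other distances, flanks, motif windows and list lengths, 1 TSS per gene, interval overlap, and leaving out each replicate. For the IDR set, leaving out a replicate meant keeping the pooled peaks supported in the remaining replicates.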

Additional observations from a re-analysis of the deposited data

How the results depend on the processing

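The count of 6 bound members was 4 within 200 bp of a TSS, where Pgk and Ldh were lost (17.0% of all genes), 6 within 1000 bp (27.1%), 4 in the 2862 IDR peaks of highest signal (13.5%), 6 by interval overlap (24.9%), 6 with 1 TSS per gene (20.7%) and 5 with support in all 3 replicates (16.0%) or without any 1 replicate (17.6% to 18.2%). The sets without a replicate are still drawn from the pooled list, so they cannot gain genes. They keep only IDR peaks supported in the remaining replicates: 4088, 4197 and 4081 peaks without replicates 1, 2 and 3. Drops in IDR counts in these sets, here and below, come with fewer peaks. They do not show the effect of removing a replicate's reads. The mean of 6.33 bound members per replicate ranged from 4.33 in the 2862 highest peaks to 9 in the whole lists, and from 6 to 7 without 1 replicate. The 16 IDR summits in genes with flanks became 10 with a flank of 0 kb, 14 with 1 kb and 20 with 5 kb, and 11 to 13 without 1 replicate. The 40 bound pathway genes became 30 within 200 bp, 46 within 1000 bp and 28 to 31 without 1 replicate, beside 17.0%, 27.1% and 17.6% to 18.2% of all genes. Within 200 bp the mean rank of Eno was 5049, since its strong summit lies 281 bp out, and Ldh, Pgk and Tpi had no value because 1 or more replicates had no summit there. Of 30 counts of members with a motif at 50 or 200 bp, 12 differed from those at 100 bp and 18 were equal; at 200 bp ACGTG was near summits of 3 members. The comparison with genes of like TSS number was added after the data were seen. No paired analysis was possible because there is only 1 group. Depth is unknown, so a missing peak may be a matter of depth, and signal values cannot be compared between lists.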
